A study of Mus musculus with 6 samples.

Results

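Immediate early genes are transcribed within minutes of a signal without new protein synthesis, and 9 of them, from 3 families, are described here: the zinc finger factor genes Egr1, Egr2 and Egr3, the orphan nuclear receptor genes Nr4a1, Nr4a2 and Nr4a3, and the immediate early response genes Ier2, Ier3 and Ier5. They were taken by symbol from the 25033 gene symbols listed, and all 9 were found and passed the filter on low counts that left 12978 tested genes. The samples were 6 RNA sequencing libraries of GFP+ haematopoietic stem cells (HSCs, which give rise to all blood cells), recovered from the marrow of C57BL/6J mice with a labelled age of 6 months. In the 3 inhibitor libraries the transplanted HSCs had received a miR-31-5p inhibitor, which blocks a microRNA that lowers transcripts with sites for its seed, and in the 3 control libraries they had been given a control RNA. Nothing in the labels ties a library to its own animal or gives the time between transplantation and sorting. The spread behind each p-value is therefore that between these libraries and may be technical.

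Growth factor and stress signals reach these genes mainly through ERK kinases acting on SRF and its ternary complex partners at CArG boxes, and through cyclic AMP and calcium acting on CREB at cyclic AMP response elements (CREs). The EGR proteins bind GC-rich sites and are held in check by the corepressors NAB1 and NAB2. NR4A receptors act without a known natural ligand, alone or with retinoid X receptors. In mouse HSCs, Egr1 and the NR4A genes are known for holding cells in quiescence. Genes of this kind also respond when cells are dissociated and sorted.

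The total counts were 16873188 to 19496200 in inhibitor libraries and 19866738 to 21245861 in control libraries, so that 3 counts, taken as the floor, equalled 0.141 to 0.177 CPM (counts scaled to the library total and by TMM). Floors cover counting error only. The RNA precursor Rn45s had 1784 to 3145 counts in inhibitor libraries, against 20039, 3667 and 61656 in control libraries 1, 2 and 3. Of 10 tested HSC and progenitor markers 4 were higher and 2 lower. Their list summed to 1069 to 1106 CPM in inhibitor and 995 to 1035 CPM in control libraries. Procr averaged 7.55 CPM in inhibitor and 1.06 CPM in control libraries, Slamf1 16.9 CPM in inhibitor and 5.22 CPM in control libraries, and both were higher in the inhibitor group. So were Ctnnal1, with 18.1 CPM in inhibitor and 7.64 CPM in control libraries, and Mllt3, with 23.2 CPM in inhibitor and 17.5 CPM in control libraries. Hlf averaged 3.65 CPM in inhibitor and 6.95 CPM in control libraries, and Ly6a 18.9 CPM in inhibitor and 25.03 CPM in control libraries, both lower in the inhibitor group. Mecom (0.38 CPM in inhibitor, 0.64 CPM in control libraries) and the progenitor marker Kit (406.2 CPM in inhibitor, 401.9 CPM in control libraries) did not pass. Neither did Cd34 (388 CPM in inhibitor, 363 CPM in control libraries) and Flt3 (207 CPM in inhibitor, 191 CPM in control libraries). Kit, Cd34 and Flt3, all of which progenitors express, made up most of the sum of this list, so that sum does not measure HSCs alone. Fgd5 had at most 10 counts in any library and was not tested, and Hoxb5 had a count of 0 in all 6 libraries. Of 13 megakaryocyte markers, all 13 were higher in the inhibitor group, with a summed level of 5099 to 5223 CPM in inhibitor and 2028 to 2321 CPM in control libraries. Of 11 monocyte and macrophage markers, 5 were lower and none higher, with a sum of 2180 to 2251 CPM in inhibitor and 3581 to 3676 CPM in control libraries. Of 11 tested neutrophil markers, 6 were higher and 5 lower, with a sum of 5773 to 5927 CPM in inhibitor and 6505 to 7360 CPM in control libraries. Most of that sum was Mpo, with means of 4315 CPM in inhibitor and 5202 CPM in control libraries. The lower ones were Mpo, Elane, Prtn3, Ctsg and Mmp8. The higher ones were S100a8 (124.0 CPM in inhibitor, 40.3 CPM in control libraries), S100a9, Ngp, Camp, Ltf and Cxcr2. The T cell genes Cd3d, Cd3e and Cd3g and the B cell gene Ms4a1 had at most 2 counts in any library. Other genes of these lists were counted. Cd79b averaged 9.19 CPM in inhibitor and 16.6 CPM in control libraries, and Nkg7 17.0 CPM in inhibitor and 23.9 CPM in control libraries. Cd4 (1.37 CPM in inhibitor, 2.92 CPM in control libraries) and Pax5 (0.45 CPM in inhibitor, 1.34 CPM in control libraries) were scarcer. All of these were lower in the inhibitor group, and Cd8a did not pass. Of 5 tested erythroid markers 4 were higher, at a sum of 18.7 to 21.1 CPM in inhibitor and 5.59 to 7.43 CPM in control libraries. The counts higher and lower were 2 and 3 of 9 mast cell and basophil markers, 1 and 4 of 7 plasmacytoid dendritic cell markers, 1 and 1 of 3 stromal and endothelial markers, 0 and 2 of 2 B cell markers, and 0 and 2 of 3 T and NK cell markers. The part of these other cell types in the results below was not tested.

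Of the 9 genes, 6 were higher in the inhibitor group, 0 were lower and 3 did not pass an adjusted p of 0.05 in the edgeR quasi-likelihood fit, adjusted by Benjamini-Hochberg over all tested genes. The 6 were Egr1, Egr2, Nr4a1, Nr4a2, Nr4a3 and Ier2, and those that did not pass were Egr3, Ier3 and Ier5. Among all tested genes 40.5% changed in either direction, 20.4% higher and 20.1% lower, so the share of higher members was 66.7% against a background of 20.4%. At least 2-fold rises were seen in 4 members (Egr1, Egr2, Nr4a1 and Nr4a2), while 5.37% of tested genes rose that far. The median log2 change was 0.57 over the 9 members and -0.01 over all tested genes. The members and the gene lists below were chosen with earlier results of these data known, so such shares are no independent comparison. Fewer cells of a type and less RNA per cell cannot be told apart in these bulk samples.

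**Figure D1:**
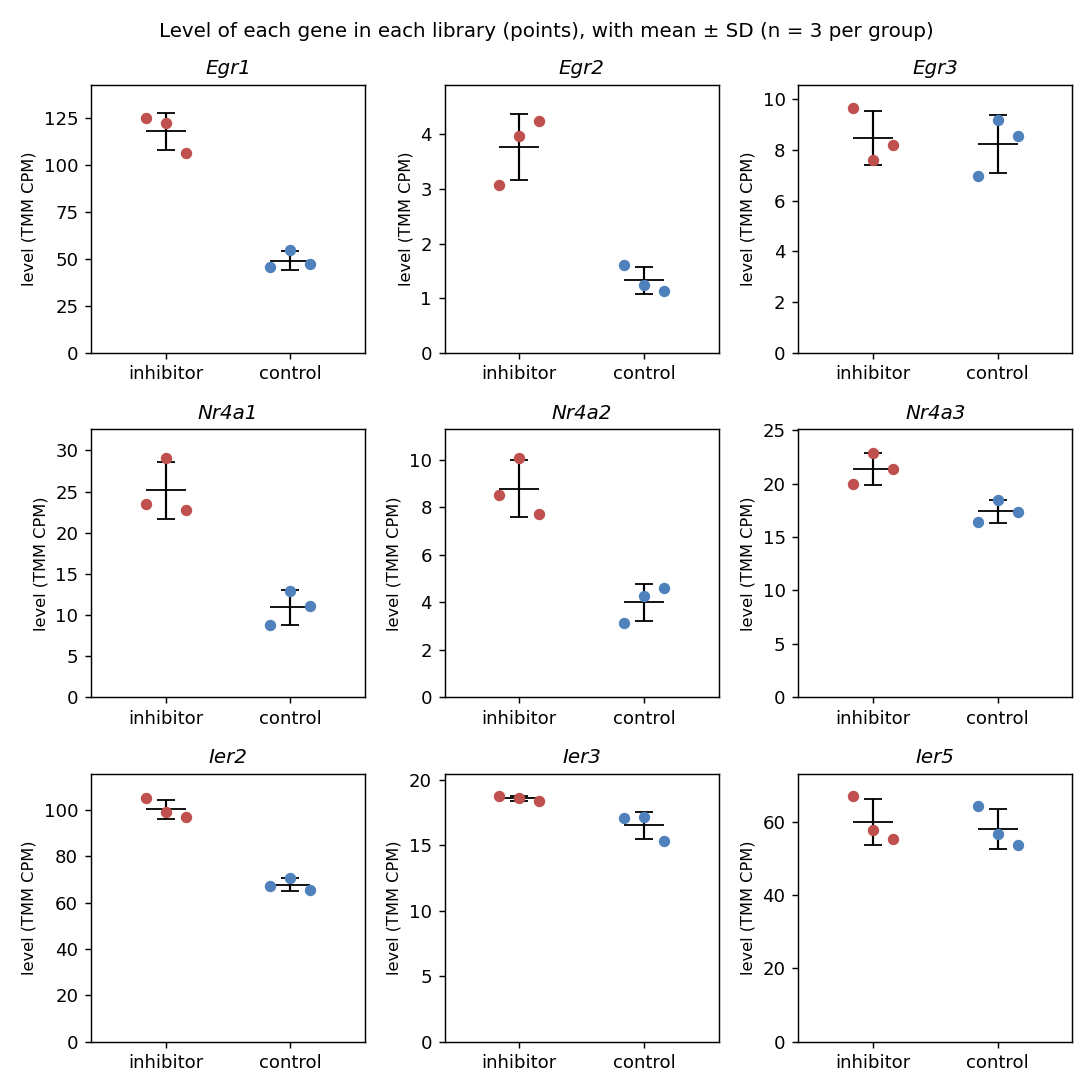
Level of each gene in TMM-scaled CPM in each library (points), with the group mean and SD (bars, n = 3 libraries per group), inhibitor on the left and control on the right. The inhibitor libraries of Egr1 lie between 106 and 125 CPM, above the control libraries at 45.4 to 54.7 CPM, whereas the groups of Egr3 and Ier5 overlap.

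Egr1 (mm10 chromosome 18, 34861207 to 34864956, 2 exons) encodes the zinc finger factor that gives the EGR family its name, a widely used readout of ERK signalling. Its level was 125, 122 and 106 CPM in inhibitor libraries 1 to 3, against 45.4, 54.7 and 47.1 CPM in control libraries 1 to 3. Every inhibitor library was well above every control library. Egr1 rose 2.40-fold, to 117.9 ± 10.03 CPM in the inhibitor group, against 49.1 ± 4.95 CPM in the control group (mean ± SD, n = 3 each). The log2 change was 1.27 ± 0.08 (SE), with an adjusted p = 8.88e-09 in the edgeR test.

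Egr2 (chromosome 10, 67534469 to 67542188), which directs Schwann cell myelination and hindbrain patterning and acts in lymphocytes and myeloid cells, was the scarcest of the 9. It had 60, 68 and 72 counts in inhibitor libraries 1 to 3, against 32, 25 and 24 counts in control libraries 1 to 3. The groups did not overlap, although the counts are few. The mean level was 3.77 ± 0.61 CPM in the inhibitor group and 1.33 ± 0.25 CPM in the control group (SD, n = 3 each), a log2 change of 1.498 ± 0.249 (edgeR adjusted p = 0.000209). Its 95% interval, 0.97 to 2.03, was the widest of the 9.

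Egr3 (chromosome 14, 70077317 to 70082613), a factor of muscle spindle formation and lymphocyte activation, did not share this pattern. Its level was 9.65, 7.59 and 8.21 CPM in inhibitor libraries 1 to 3, against 6.98, 9.20 and 8.56 CPM in control libraries 1 to 3. The groups overlapped. The log2 change was 0.04, with a 95% interval of -0.27 to 0.36 and an edgeR adjusted p = 0.835. Its sign turned without inhibitor library 1 (-0.062) or without control library 1 (-0.060), again without passing the threshold.

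Nr4a1 (chromosome 15, 101253902 to 101274795) encodes NUR77, a receptor induced by antigen and growth factor signals that patrolling monocytes also need. Its level was 23.5, 29.1 and 22.8 CPM in inhibitor libraries 1 to 3, against 8.74, 12.9 and 11.1 CPM in control libraries 1 to 3. The lowest inhibitor library was above the highest control library. The means were 25.1 ± 3.46 CPM in the inhibitor group and 10.9 ± 2.11 CPM in the control group (SD, n = 3 each), a 2.30-fold rise and a log2 change of 1.199 ± 0.139 (edgeR adjusted p = 7.56e-06).

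Nr4a2 (chromosome 2, 57106830 to 57124003), known as NURR1 for its part in dopaminergic neurons and studied in HSC quiescence, moved by a similar amount at a lower level. It had 8.52, 10.1 and 7.74 CPM in inhibitor libraries 1 to 3, against 3.11, 4.25 and 4.61 CPM in control libraries 1 to 3. Inhibitor library 2 was the highest library for all 3 NR4A genes and control library 1 the lowest. The log2 change of Nr4a2 was 1.13 ± 0.17, or 2.196-fold (edgeR adjusted p = 9.99e-05).

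Nr4a3 (chromosome 4, 48045078 to 48086447) encodes NOR1, which together with Nr4a1 restrains HSC proliferation and myeloid leukaemia in mice. Its level was 19.9, 22.9 and 21.3 CPM in inhibitor libraries 1 to 3, against 16.4, 18.5 and 17.3 CPM in control libraries 1 to 3. The groups were close but did not overlap. The log2 change was 0.30 ± 0.10, or 1.23-fold, with an edgeR adjusted p = 0.0262. The call was lost without inhibitor library 2 (log2 change 0.25, adjusted p = 0.114), without inhibitor library 3 (0.30, adjusted p = 0.0604) and without control library 3 (0.29, adjusted p = 0.0700). Over 15 alternatives the adjusted p ranged from 0.0193 to 0.274, and 9 of them kept the call.

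Ier2 (chromosome 8, 84661331 to 84662852, a single exon) encodes a nuclear protein that is induced together with Fos and Egr1 in many cells. Its level was 105, 99.1 and 97.0 CPM in inhibitor libraries 1 to 3, against 67.3, 70.7 and 65.3 CPM in control libraries 1 to 3. The groups stood apart by far more than their spread. The means were 100.4 ± 4.13 CPM in the inhibitor group and 67.7 ± 2.71 CPM in the control group (SD, n = 3 each), a 1.48-fold rise and a log2 change of 0.57 ± 0.06 (edgeR adjusted p = 2.78e-06).

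Ier3 (chromosome 17, 35821713 to 35822911) encodes IEX-1, a stress-inducible protein that modulates apoptosis and ERK signalling. Its level was 18.7, 18.6 and 18.4 CPM in inhibitor libraries 1 to 3, against 17.1, 17.1 and 15.3 CPM in control libraries 1 to 3. Every inhibitor library was above every control library, but the log2 change of 0.17 (95% interval -0.04 to 0.38) did not pass the threshold (edgeR adjusted p = 0.183). Such separation, with the inhibitor higher, was seen in 25.9% of all tested genes and in 7 of the 9 members, and with the inhibitor lower in 26.5% of tested genes and in 0 members. After a correction for GC content and transcript length Ier3 passed (log2 change 0.33, adjusted p = 0.00816) and Nr4a3 did not (0.21, adjusted p = 0.0643), while the other 7 genes stayed on their side of the threshold.

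Ier5 (chromosome 1, 155096367 to 155099636, a single exon) encodes a partner of the phosphatase PP2A that activates the heat shock factor HSF1. It had 66.9, 57.7 and 55.1 CPM in inhibitor libraries 1 to 3, against 64.1, 56.7 and 53.5 CPM in control libraries 1 to 3. The groups overlapped, with library 1 the highest in each group. The log2 change was 0.05, with a 95% interval of -0.13 to 0.23 (edgeR adjusted p = 0.697).

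**Figure D2:**
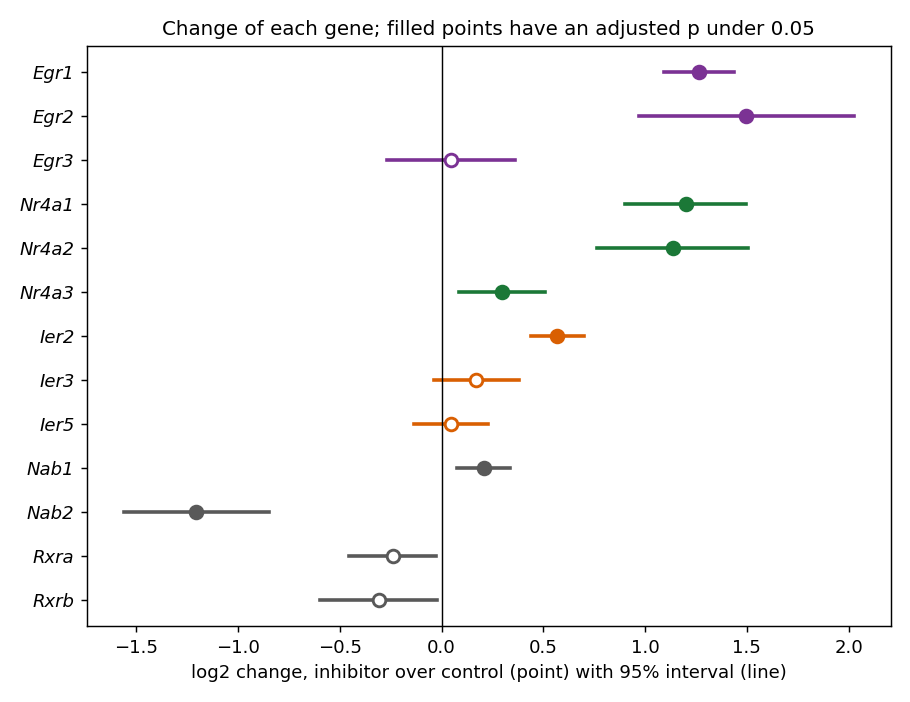
Log2 change of inhibitor over control (points) with its 95% interval (lines) for the 9 genes, coloured by family, and for the EGR corepressor genes Nab1 and Nab2 and the retinoid X receptor genes Rxra and Rxrb (grey). Filled points passed an adjusted p of 0.05. Nab2, at -1.21, lies on the other side of zero from Egr1 and Egr2, at 1.27 and 1.498.

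The control libraries differed among themselves in Rn45s, and control libraries 1 and 3 had the most of it. Without both, the log2 change was 1.11 for Egr1, 1.58 for Egr2, 0.96 for Nr4a1, 1.05 for Nr4a2 and 0.51 for Ier2, all past the threshold, with control library 2 assumed to vary like the inhibitor libraries. Nr4a3 was at 0.21 and did not pass (adjusted p = 0.274). Leaving out any 1 library, each in turn, left Egr1, Egr2, Nr4a1, Nr4a2 and Ier2 past the threshold.

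Members of a family were also set against each other by the ratio of 2 members within each library, which needs no scaling between libraries. The ratios come from the same counts as the changes above, and with 3 against 3 libraries no pair can pass a threshold of 0.05. For 9 pairs the mean log2 ratio of the inhibitor libraries was set against that of the control libraries. The log2 ratio of Egr1 to Egr3 was 3.80 ± 0.18 in the inhibitor group and 2.58 ± 0.12 in the control group (SD, n = 3 each), a difference of 1.22. Egr2 over Egr3 differed by 1.45, from means of -1.17 in the inhibitor group and -2.62 in the control group. Egr3 was thus lower relative to both other EGR genes in every inhibitor library than in any control library. Nr4a1 over Nr4a3 differed by 0.91 and Nr4a2 over Nr4a3 by 0.85, while Nr4a1 over Nr4a2 differed by 0.06, with overlapping groups. Ier2 over Ier3 differed by 0.40 and Ier2 over Ier5 by 0.52. In 6 of the 9 pairs the groups did not overlap, each with p = 0.1 in a two-sided exact permutation test, the smallest p that 3 against 3 libraries allow, and 0.15 after Benjamini-Hochberg adjustment over the 9 pairs. The remaining pairs (Egr1 over Egr2, Nr4a1 over Nr4a2 and Ier3 over Ier5) overlapped, with p = 0.5, 0.8 and 0.3 in the same exact test.

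**Figure D3:**
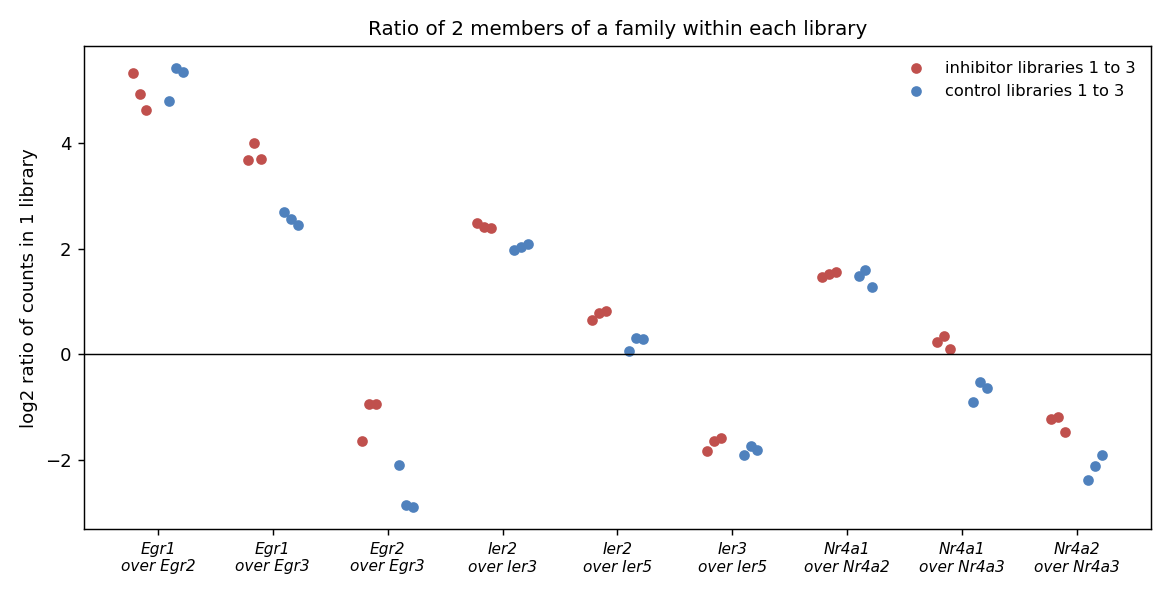
Log2 ratio of the counts of 2 members of a family within each library, for 9 pairs, with inhibitor libraries (red) left of control libraries (blue). The groups separate in 6 pairs and overlap for Egr1 over Egr2, Ier3 over Ier5 and Nr4a1 over Nr4a2.

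Levels between genes are compared here as CPM per kilobase of the transcript length the files list. Ier2 was the most abundant in both groups, at 65.9 ± 2.71 CPM per kilobase in the inhibitor group and 44.5 ± 1.78 in the control group (SD, n = 3 each). Egr1 was next in the inhibitor group at 38.4 ± 3.27 CPM per kilobase, against 15.98 ± 1.61 in the control group. There the mean ± SD ranges of neighbours overlapped in the order Ier5, Egr1, Ier3 and Nr4a3 (17.8, 15.98, 15.2 and 13.5 CPM per kilobase). In the inhibitor group Ier5, Ier3 and Nr4a3 followed with 18.3, 17.0 and 16.5 CPM per kilobase, again with overlapping ranges. Nr4a1 was at 10.2 ± 1.40 CPM per kilobase in the inhibitor group and 4.42 ± 0.85 in the control group. Nr4a2, Egr3 and Egr2 were lowest, with 2.77, 2.16 and 1.45 CPM per kilobase in the inhibitor group and 1.26, 2.10 and 0.51 in the control group. Nr4a2 was thus above Egr3 in mean level in the inhibitor group, where their mean ± SD ranges overlapped. It was below Egr3 in the control group, where these ranges did not overlap. Such ranges leave out that both genes were read in the same libraries. The length listed for Nr4a3 was 1292 bases, whereas its longest coding transcript in GENCODE has 5720. On that length Nr4a3 would be at 3.74 CPM per kilobase in the inhibitor group and 3.04 in the control group, below Nr4a1, so its place in this order is uncertain. Egr1 has 3072 listed bases against 4484 in GENCODE. Its level on the longer length, 26.3 CPM per kilobase in the inhibitor group and 10.9 in the control group, would put it below Ier3 and Ier5 in the control group.

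Transcripts of genes whose proteins act with these families were also measured. Nab2, an EGR corepressor whose gene is itself an EGR target (chromosome 10, 127660918 to 127666703), had 7.45, 5.25 and 6.32 CPM in inhibitor libraries 1 to 3, against 18.3, 13.2 and 12.6 CPM in control libraries 1 to 3. The groups did not overlap, and Nab2 fell 2.31-fold, a log2 change of -1.21 ± 0.17 (edgeR adjusted p = 4.43e-05). Nab1 rose slightly, by 0.21 ± 0.06 (edgeR adjusted p = 0.0132), but did not pass without inhibitor library 3 (0.19, adjusted p = 0.0618) or without control libraries 1 and 3 (0.13, adjusted p = 0.158). Among the retinoid X receptor genes, Rxra was at -0.24 (adjusted p = 0.0658) and Rxrb at -0.31 (adjusted p = 0.0829), neither past the threshold in the edgeR test. Both passed in some alternatives, among them Rxra without control library 2 (-0.31, adjusted p = 0.0256) and Rxrb without inhibitor library 1 (-0.40, adjusted p = 0.0307) or control library 2 (-0.39, adjusted p = 0.0270). Rxrg was at a count of 0 in all 3 inhibitor libraries and at 15, 2 and 12 counts in control libraries 1 to 3, and it was not tested. The fourth EGR gene, Egr4, had at most 2 counts in any library, and Wt1, which encodes a related zinc finger protein, had 0 in all 6. Ier5l (log2 change -0.01), Ier3ip1 (-0.14) and Sertad1 (-0.17) did not pass.

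Other immediate early genes were counted in the same way. From a list of 51, 50 genes were tested: 30 rose, 6 fell and 14 did not pass, which makes 60% higher and 12% lower, against 20.4 and 20.1% of all tested genes. Their median log2 change was 0.49, and -0.01 over all tested genes. Like the members, this list was chosen with earlier results of these data known, which limits the comparison of shares. The 6 largest rises were in Arc, a cytoskeletal protein gene of synapses (2.28 ± 0.24), the phosphatase gene Dusp1 (1.96 ± 0.11), the prostaglandin synthase gene Ptgs2 (1.91 ± 0.13), the kinase gene Sgk1 (1.59 ± 0.11), the G protein regulator gene Rgs1 (1.51 ± 0.09) and the growth arrest gene Gadd45g (1.36 ± 0.13). Dusp1 had 78.0, 73.9 and 80.5 CPM in inhibitor libraries 1 to 3, against 24.001, 19.6 and 16.2 CPM in control libraries 1 to 3. Those that fell were the chemokine genes Ccl3 (-1.54 ± 0.11) and Ccl4 (-1.21 ± 0.18), the growth factor target Myc (-0.66 ± 0.06), the activation marker gene Cd69 (-0.49 ± 0.08), the NF-kB inhibitor gene Tnfaip3 (-0.29 ± 0.07) and the factor gene Klf4 (-0.23 ± 0.08). Klf4 was not called without inhibitor library 1, 2 or 3 or without control library 2 or 3 (adjusted p = 0.0527 to 0.102), nor with the GC and length correction (0.0662). The list thus held genes moving both ways, with Ccl3 at 24.6, 27.3 and 18.7 CPM in inhibitor libraries 1 to 3, against 68.1, 71.6 and 66.1 CPM in control libraries 1 to 3.

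Heat shock genes, which also respond to cell handling, rose more often than they fell. Among the 14 tested genes 7 rose (50%, against 20.4% of all tested genes), Hspd1 fell (7.14%, against 20.1%) and 6 did not pass, with a median log2 change of 0.19. Hspa1b, an inducible chaperone gene nearly identical to Hspa1a and so uncertain in its counts, was at 39.5, 40.9 and 40.2 CPM in inhibitor libraries 1 to 3, against 11.2, 9.65 and 12.1 CPM in control libraries 1 to 3 (log2 change 1.87 ± 0.10). Hspa1a rose by 1.72 ± 0.17, with the same uncertainty. The cochaperone gene Dnajb4 (0.79 ± 0.09) and the HSP110 gene Hsph1 (0.49 ± 0.06) rose too. The summed level of the list was 8578 to 8681 CPM in inhibitor and 8264 to 8485 CPM in control libraries. This list did not hold the Fos and Jun genes, which were among the other immediate early genes and also respond to dissociation. Of these, Fos (1.33 ± 0.07), Fosb (1.33 ± 0.09), Junb (0.52 ± 0.10) and Jun (0.48 ± 0.07) rose. Fosl1 (0.54), Fosl2 (0.14) and Jund (0.13) did not pass. The part of cell handling in the rise of the EGR, NR4A and IER genes was not tested.

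Of 28 tested kinase and factor genes upstream, 7 were higher and 1 lower, or 25 and 3.57%, against 20.4 and 20.1% of all tested genes, and their median was 0.08. Called members with the smallest p-values were Mef2a (0.64 ± 0.07) and Mef2c (0.43 ± 0.07), factors that bind the Nr4a1 promoter in T cells, Srf (-0.39 ± 0.08), the factor at CArG boxes, and Crem (0.77 ± 0.13), which encodes CRE-binding activators and repressors. Srf was thus lower while Egr1 and Egr2 were higher. Its level was 75.5, 64.8 and 61.4 CPM in inhibitor libraries 1 to 3, against 97.1, 85.7 and 82.7 CPM in control libraries 1 to 3. The genes of the SRF coactivators, Mrtfa (0.27 ± 0.06) and Mrtfb (0.36 ± 0.08), were among the higher ones. The ternary complex genes Elk1 (-0.15), Elk3 (0.11) and Elk4 (0.10) did not pass. The ERK kinase gene Mapk3 (0.02) did not pass. Phosphorylation, through which these kinases act, was not measured.

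**Figure D4:**
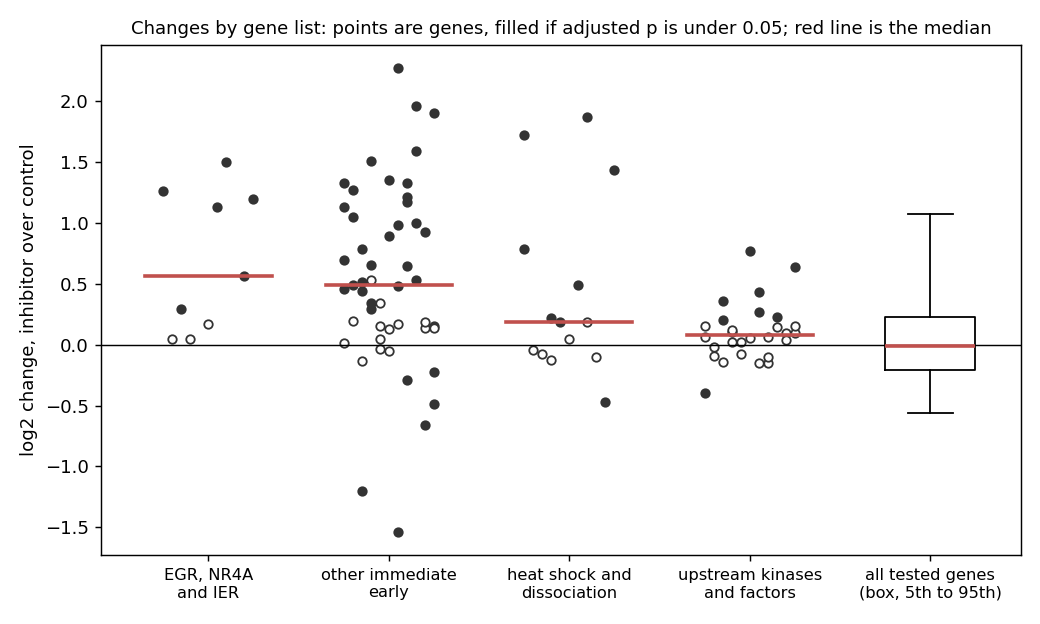
Log2 change of inhibitor over control for each tested gene (points, filled past an adjusted p of 0.05) of the 9 members, 50 other immediate early genes, 14 heat shock and dissociation genes and 28 upstream kinase and factor genes, with list medians (red lines). The box shows the quartiles of all 12978 tested genes, with whiskers at the 5th and 95th percentiles. The medians are 0.57, 0.49, 0.19 and 0.08, beside -0.01 for all genes.

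The promoters of members were compared because 6 of the genes rose and 3 did not pass. RefSeq promoters (GRCm38.p6, the assembly of mm10) were at hand for 6 of the 9 genes, in 10 windows, of which 5 belong to Egr2. No window was searched for Egr1 and Ier2, which rose, or for Egr3, which did not pass. The 250 bases before the start were searched on both strands for the CRE TGACGTCA, its core TGACG, which a whole CRE contains on each strand, the CArG box, the EGR site GCGNGGGCG and the NR4A monomer site AAAGGTCA. Sequences of 3 genes that rose and hold CRE cores are shown, with every match in capitals (CGTCA is the core on the other strand). Nr4a3 also rose and holds CRE cores, but its sequence is not shown. The sequences shown run up to the first exon of a coding GENCODE transcript. Those of Nr4a1 and Egr2 precede starts that lie inside the gene as RefSeq bounds it, after its first start, and that of Nr4a2 precedes the gene. They are chr15:101266596-101266845 on the plus strand for Nr4a1, chr2:57124004-57124253 on the minus strand for Nr4a2 and chr10:67537619-67537868 on the plus strand for Egr2.
Nr4a1: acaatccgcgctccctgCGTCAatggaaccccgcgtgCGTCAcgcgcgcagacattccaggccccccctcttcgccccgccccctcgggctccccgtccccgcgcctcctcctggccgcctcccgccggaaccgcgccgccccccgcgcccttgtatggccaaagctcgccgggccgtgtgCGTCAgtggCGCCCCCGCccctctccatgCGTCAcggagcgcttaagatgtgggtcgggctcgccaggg
Nr4a2: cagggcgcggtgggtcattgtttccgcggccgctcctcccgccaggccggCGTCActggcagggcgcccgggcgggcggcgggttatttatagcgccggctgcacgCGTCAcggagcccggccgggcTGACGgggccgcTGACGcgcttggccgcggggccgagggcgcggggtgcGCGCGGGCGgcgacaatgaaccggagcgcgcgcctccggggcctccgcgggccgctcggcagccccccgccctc
Egr2: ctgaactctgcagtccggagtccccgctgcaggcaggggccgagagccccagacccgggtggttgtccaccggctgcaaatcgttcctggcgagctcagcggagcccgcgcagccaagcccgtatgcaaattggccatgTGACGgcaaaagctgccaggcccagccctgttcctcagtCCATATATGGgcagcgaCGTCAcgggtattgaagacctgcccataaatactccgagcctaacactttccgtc

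The windows of Nr4a1, Nr4a2 and Nr4a3 each held 4 CRE cores, and windows with at least 4 made up 0.137% of 32851 promoters. In the Nr4a3 window only the first 98 bases precede an exon of a coding GENCODE transcript. Its core at 147 bases before the start lies past them. That of Egr2 shown here held 2, on either side of a CArG box, and 3.90% of promoters held at least 2. At least 1 CRE core was found in 17.8% of promoters, a CArG box in 1.47% and an EGR site in 4.70%. Nr4a1 and Nr4a2 each also held 1 EGR site. Of the other 4 Egr2 windows, 2 overlap the one shown and hold the same sites, 1 further upstream holds another CArG box alone, and 1 holds no match. The windows of Ier3 and Ier5, which did not pass the threshold, held no match to any of the 5 motifs. None of the 10 windows held a whole CRE, found in 1.55% of promoters, or an NR4A site, found in 1.34%. Nr4a3, with as many CRE cores as Nr4a1, rose 1.23-fold, and Nr4a1 rose 2.30-fold. A match of letters is not evidence of binding, and no relation between motifs and changes was tested.

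A site for miR-31-5p was sought in the longest GENCODE 3′ UTR of each of the 9 genes. The microRNA is shown so that its seed (bases 2 to 8, in capitals) can be set against the site searched, TCTTGCC.
mmu-miR-31-5p: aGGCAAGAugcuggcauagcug
None of the 9 genes held the site, which 11.8% of 19925 genes with a 3′ UTR of at least 100 bases held. The pentamer ATTTA, the core of elements that destabilise many immediate early transcripts, was present in 8 of the 9 and in 68.3% of those genes. Ier3 had the most, 8.16 per kilobase of 3′ UTR, and Nr4a1 had 5.53, against a median of 1.35 over all genes, while Ier2 had none. Nr4a1 and Ier2 rose and Ier3 did not pass, and no relation between this density and the changes was tested.

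Genes with the most similar profiles were found by the Euclidean distance between log2 CPM centred over the 6 libraries, among 10174 other genes with a mean of at least 5 CPM. With 2 groups this distance mostly reflects the size of the group difference. Closest to Egr1 were Ly75 (distance 0.16), Sema6d (0.19), Plxdc2 (0.20), Ptprf (0.20) and Slc44a1 (0.21), with log2 changes of 1.15, 1.17, 1.33, 1.29 and 1.15. The nearest gene to Nr4a1 was Nr4a2 (0.26), followed by Sbf2 (0.28), Ak1 (0.30), Il7r (0.31) and Sema6d (0.32). Closest to Ier2 were Zfand3 (0.06), H2-Aa, Zfp579, Pnrc1 (0.08 each) and Sox4 (0.09), with log2 changes between 0.53 and 0.60. Apart from Nr4a2, none of these genes was on the lists of immediate early, upstream or heat shock genes.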

How the data were processed

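The deposited table of each library held raw read counts per RefSeq gene symbol, and RPKM values, which the authors scaled to the longest transcript and a library total, per the file headers. The submitters' processing notes name mm10 and bcl2fastq 2.20. Neither aligner nor counter nor counting strand is given in these sources, and reads of overlapping or antisense genes cannot be told apart. RPKM served only as a check: the library totals it implies exceeded the summed counts by 0.22 to 0.35% in inhibitor libraries and by 2.82, 0.49 and 8.68% in control libraries 1 to 3. Columns of samples of other series numbered 0.

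The filter was filterByExpr of edgeR (counts of at least 10, and 15 in total). Counts were scaled by TMM and fitted with edgeR 4.0.16 (robust quasi-likelihood, R 4.3.3) on all 12978 kept genes, with p-values adjusted by Benjamini-Hochberg (threshold 0.05). The design had no block. Levels are TMM-scaled CPM. Family ratios added 0.5 counts, and profile distances used a prior count of 2. The procedure was tested on simulated counts with known changes. Alternatives were RLE factors, no filter, a stricter filter (1 CPM in a whole group, mean count 10), a replicate block, libraries left out, DESeq2 1.42.0, limma-voom (limma 3.58.1), a loess correction for GC content and length (span 0.4) with a value for 99.5% of tested genes, and thinning to the smallest total. Promoters and the microRNA came from RefSeq (GRCm38.p6) and 3′ UTRs from GENCODE M21, searched with Python 3.11.15. A protein table was not used here.

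The members and gene lists were chosen with earlier results of these data known. Genes named beside the members followed a rule: relatives, NAB and RXR genes, the 6 largest called rises and falls of the other immediate early list with a mean of at least 10 counts, the 4 called genes with the smallest p of the upstream and heat shock lists, and the 5 nearest profiles to Egr1, Nr4a1 and Ier2. Mapk3, Hspd1, Rn45s, the cell type markers, Dusp2, Dusp5, Dusp6 and the Zfp36 genes were named outside the rule, after their values were seen. So were the Fos, Jun, Mrtf and Elk genes.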

Additional observations from a re-analysis of the deposited data

How the results depend on the processing

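Egr1, Egr2, Nr4a1, Nr4a2 and Ier2 kept their direction and call under all 15 alternatives, with log2 changes of 1.11 to 1.36, 1.39 to 1.65, 0.96 to 1.34, 0.986 to 1.253 and 0.51 to 0.68. The number of members called higher was 5 to 6, and under the GC and length correction its 6 hold Ier3 in place of Nr4a3. Nr4a3 also lost its call after thinning (0.24, adjusted p = 0.0710), and the cause was not tested. Small changes that never passed turned sign. Egr3 ranged from -0.062 to 0.134 when single libraries were left out (negative without inhibitor library 1 or control library 1) and was at -0.11 without control libraries 1 and 3 and -0.012 after thinning. Ier5 ranged from -0.042 to 0.124 when single libraries were left out. Ier5l ranged from -0.15 to 0.28 when single libraries were left out, and was at 0.0032 with the replicate block, 0.32 without control libraries 1 and 3, 0.019 with limma-voom and 0.073 with the GC and length correction. Upstream genes called lower numbered 1, and 1 to 2 when single libraries were left out, 2 without control libraries 1 and 3 and 2 with the GC and length correction. The replicate numbers are shared by both groups but are not said to pair libraries, and deviations of same-numbered libraries correlated by only 0.0576, 0.00818 and 0.0366. Each inhibitor library correlated best with its own number, but control library 2 did not. With the replicate block 2831 genes were higher and 2842 lower, against 2646 and 2613 without it, 6 members stayed higher, and Rxrb passed (-0.31, adjusted p = 0.000578). Depth limits Egr2, with 24 to 72 counts a library.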

Other observations

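The genes of ERK feedback phosphatases Dusp5 and Dusp6 rose, by 1.13 ± 0.09 and 1.17 ± 0.06 on the log2 scale. Dusp2, a phosphatase gene of the same family, did not pass (0.15, edgeR adjusted p = 0.252). Dusp6 had 130, 119 and 127 CPM in inhibitor libraries 1 to 3, against 55.3, 56.1 and 55.0 CPM in control libraries 1 to 3, a gap many times the spread within either group.

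Among the zinc finger mRNA decay genes, Zfp36 (0.49 ± 0.07) and Zfp36l1 (1.00 ± 0.06) rose, and Zfp36l2 (0.05) did not pass. Their proteins bind elements built on ATTTA, which 8 of the 9 EGR, NR4A and IER transcripts hold, as do 68.3% of genes with a 3′ UTR of at least 100 bases. A relation between these decay genes and the 9 genes was not tested.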
